A study of Macaca mulatta with 136 samples.

Results

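The nuclear genes for the subunits of oxidative phosphorylation were followed across the retina and the RPE/choroid of the rhesus macaque (Macaca mulatta). They were picked by symbol alone, as every gene entry whose assigned symbol begins with NDUFA, NDUFB, NDUFC, NDUFS or NDUFV and a number, is SDHA to SDHD, or begins with UQCR, COX4 to COX8 or ATP5. The rule found 134 of 19422 gene identifiers, which carry 74 symbols. Complex I has 47 of these entries, complex II has 5, complex III has 10, complex IV has 33 and complex V has 39. Several symbols sit on more than 1 entry (32 of 74), and 55 entries had a mean under 10 counts per library. After the filter on low counts, 80 entries were tested in the retina, 78 in the RPE/choroid and 82 in the tissues together. The entry with the highest mean carries the symbol below, and the others are called the second or the third entry.

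Some symbols need care. NDUFA4 falls in complex I by its symbol but is known as a subunit of cytochrome c oxidase (complex IV), and CYC1, a complex III subunit, falls outside the rule. The reference name table had a name for 46 of the 134 entries, and 4 of these differ from the assigned symbol. COX7AH is listed there as COX7A1, the heart and muscle form of a complex IV subunit, ATP5G2 as ATP5MC2 and ATP5S as DMAC2L. The entry assigned to COX8A is listed as OTUB1, a deubiquitinase gene, and is therefore counted among the 134 but not read as COX8A. A further limit is that 26 entries, 8 of them tested, have a symbol with no supporting orthology source in the files.

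Oxidative phosphorylation passes electrons from NADH (complex I) and succinate (complex II) through complex III to oxygen at complex IV, and complex V makes ATP from the proton gradient that this builds. Most subunits are encoded in the nucleus and imported, while a small core set is encoded by mitochondrial DNA. Photoreceptors hold dense mitochondria in their inner segments, and the RPE, the epithelium beneath them, also relies on mitochondrial respiration.

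The libraries came from 2 mm punches of 4 eyes of 2 adult monkeys, labelled RM03 and RM04. Retina and RPE/choroid were each sampled at the fovea (with the macula around it), the perimacula, the nasal site and the periphery, which gives 32 libraries of 4 per group. No treatment or genotype separated the groups, RNA was taken after death and had an integrity number above 6.5, and poly-A libraries were read as 100 bp pairs. Fovea, perimacula and nasal libraries were each run on 5 lanes of a shared pair of flow cells, while the periphery libraries were run on 2 lanes of a flow cell of their own, so that periphery and flow cell cannot be told apart. Totals were between 42448903 and 78574055 estimated counts per library. Below, the values of 4 eyes stand in the order right and left eye of RM03, then right and left eye of RM04. The p-values measure the spread among 4 eyes from 2 animals.

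Most marker genes of the retina and the RPE went with the labelled tissues, and their levels moved with location. At the fovea all 9 rod and 9 ganglion cell markers were called higher in the retina, and all 9 RPE markers in the RPE/choroid. Against the label, 1 of 9 cone, 1 of 7 bipolar cell and 2 of 6 Mueller glia markers were called higher in the RPE/choroid there. Other locations had exceptions too, such as 1 of 7 endothelial markers higher in the retina at the periphery. In the retina, 9 rod markers summed to between 4013 and 4610 CPM at the fovea and between 23890 and 28040 CPM at the periphery, while 9 ganglion cell markers summed to between 9354 and 11240 CPM at the fovea and between 513 and 1115 CPM at the periphery. Markers of the RPE summed to between 167 and 249 CPM in foveal retina and between 659 and 1351 CPM in peripheral retina, against 11200 to 27020 CPM in the RPE/choroid. In the RPE/choroid, smooth muscle markers summed to between 5977 and 9227 CPM at the fovea and between 1046 and 2541 CPM at the periphery, and all 7 endothelial markers were called higher at the fovea. In that comparison 4 of 6 fibroblast, 4 of 7 bipolar cell, 3 of 5 amacrine and horizontal cell and 4 of 6 Mueller glia markers were called lower at the fovea. The other 2 amacrine and horizontal cell markers were called higher there. The 9 rod markers had a median log2 fold change of -2.03 with none called, and 4 of the 9 were lower at the perimacula than at the periphery of the RPE/choroid. None of the 9 rod, 9 cone, 9 ganglion cell or 9 RPE markers was at 0. The part of these cell mixtures in the results below was not tested, and in such bulk samples fewer cells of a type and less RNA per cell cannot be told apart. The library of the right foveal retina of RM03 had 147 of 10333 genes below 50% of the lowest other eye, and that of the left peripheral RPE/choroid of RM03 had 310. Leaving out 4 retina libraries with low COX5B (the right fovea, right perimacula and left periphery of RM03 and the left perimacula of RM04, chosen after the values were seen) gave 12 members higher and 47 lower at the fovea than at the periphery of the retina, 7 higher and 3 lower than at the perimacula, and 24 higher and 5 lower than at the nasal site. The right peripheral retinas of RM03 and RM04 were also low in COX5B (8.70 and 4.59 CPM) and were kept in that fit.

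Summed over all 134 entries, the genes took a larger share of the library in the retina than in the RPE/choroid at every location, and in both tissues the periphery had the largest share. Foveal retina gave 0.735, 0.820, 0.721 and 0.731% of all estimated counts in the 4 eyes, and peripheral retina gave 0.975, 0.923, 1.02 and 0.972%. Foveal RPE/choroid gave 0.431, 0.413, 0.442 and 0.438%, and peripheral RPE/choroid gave 0.760, 0.582, 0.643 and 0.686%. Fovea and periphery did not overlap in either tissue. The ratio of periphery to fovea within an eye was 1.30 ± 0.124 (SD, n = 4) in the retina and 1.55 ± 0.158 (SD, n = 4) in the RPE/choroid.

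Among the 3 locations that shared flow cells the retina had a smaller gradient the other way. The share was 0.752 ± 0.0458% at the fovea, 0.691 ± 0.0265% at the perimacula and 0.663 ± 0.0182% at the nasal site (SD, n = 4). The lowest fovea value (0.721%) lies below the highest perimacula value (0.7213%), so that these neighbours overlap narrowly, whereas the fovea lay above the nasal site (highest 0.683%) in all 4 eyes. The RPE/choroid was nearly flat over these locations, at 0.431 ± 0.0131%, 0.431 ± 0.00676% and 0.408 ± 0.00929% (SD, n = 4).

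**Figure D1:**
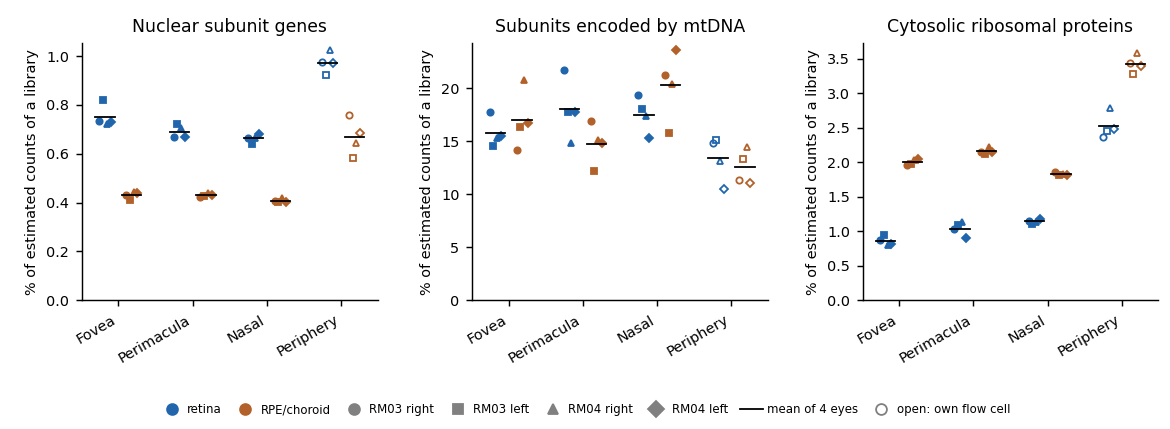
Share of all estimated counts, in percent, taken by the 134 entries, by the subunits encoded by mitochondrial DNA and by cytosolic ribosomal protein genes in each of the 32 libraries, by tissue and location. Every point is 1 eye and bars are group means. In the first panel the periphery points of each tissue (0.923 to 1.02% in retina, 0.582 to 0.760% in RPE/choroid) lie above all other points of that tissue.

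Retina exceeded RPE/choroid within an eye by 1.75 ± 0.162 times at the fovea, 1.60 ± 0.0552 times at the perimacula, 1.63 ± 0.0557 times at the nasal site and 1.47 ± 0.148 times at the periphery (SD, n = 4). The complexes did not share this ratio equally. Complex III had the widest gap at the fovea, 2.31 ± 0.243 times (SD, n = 4), and still 2.02 ± 0.204 times at the periphery. Complex I gave 1.59 ± 0.172 times and complex II 1.61 ± 0.166 times at the fovea. Complex II was also the complex whose summed share was not larger at the periphery of the retina: its ratio of periphery to fovea was 0.931 ± 0.105 there, against 1.27 ± 0.0475 in the RPE/choroid and 1.47 ± 0.145 for complex I in the retina (SD, n = 4). The subunits encoded by mitochondrial DNA had a different order, with 15.8 ± 1.36% of all counts in foveal and 13.4 ± 2.12% in peripheral retina, and 16.98 ± 2.74% and 12.6 ± 1.59% in RPE/choroid (SD, n = 4). The entries in this sum outnumber the genes they stand for, as given with the lists below. Cytosolic ribosomal protein genes, in contrast, moved with the periphery libraries: they took 0.858 ± 0.0643% and 2.52 ± 0.178% of the counts in foveal and peripheral retina, and 2.002 ± 0.0452% and 3.42 ± 0.128% in RPE/choroid (SD, n = 4). Whether these shares have a common source was not tested.

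Fovea and periphery were then compared gene by gene, to ask how these subunits change from the center of the eye outwards. In the retina, 12 of 80 tested members were higher at the fovea and 49 were lower by edgeR's quasi-likelihood test (Benjamini-Hochberg adjusted p below 0.05 over all genes). Of all 15380 genes tested, 31% were called higher and 36% lower. In the RPE/choroid, 6 of 78 members were higher and 49 lower, where 21.2% and 22.9% of all 15674 genes were called higher and lower. The median log2 fold change of fovea over periphery was -0.58 for the members and -0.06 for all genes in the retina, and -0.63 and -0.06 in the RPE/choroid. In the retina 50 of the 80 members had no overlap between the 4 foveal and the 4 peripheral libraries, against 53.8% of all genes. In the RPE/choroid 43 of 78 had none, against 31.2% of all genes.

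In the retina each complex had more members called lower than higher at the fovea, although the summed share of complex II was not larger at the periphery. There 21 of 39 complex I entries, 2 of 4 of complex II, 4 of 6 of complex III, 7 of 10 of complex IV and 15 of 21 of complex V were lower at the fovea, and 8, 1, 0, 0 and 3 were higher. Those lower in the RPE/choroid numbered 23 of 38, 3 of 4, 3 of 5, 7 of 11 and 13 of 20. Of the 77 entries tested in both tissues, 47 were lower at the fovea in the retina and 49 in the RPE/choroid, and 40 were shared, which is 85.1% of the first list and 81.6% of the second. Higher at the fovea in both tissues were 4 entries. The same overlap was not counted over all genes, so that neither number is read as particular to the members. NDUFV1 was called in opposite directions, higher at the fovea in retina and lower in RPE/choroid, and COX4I2 was called in the reverse directions.

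**Figure D2:**
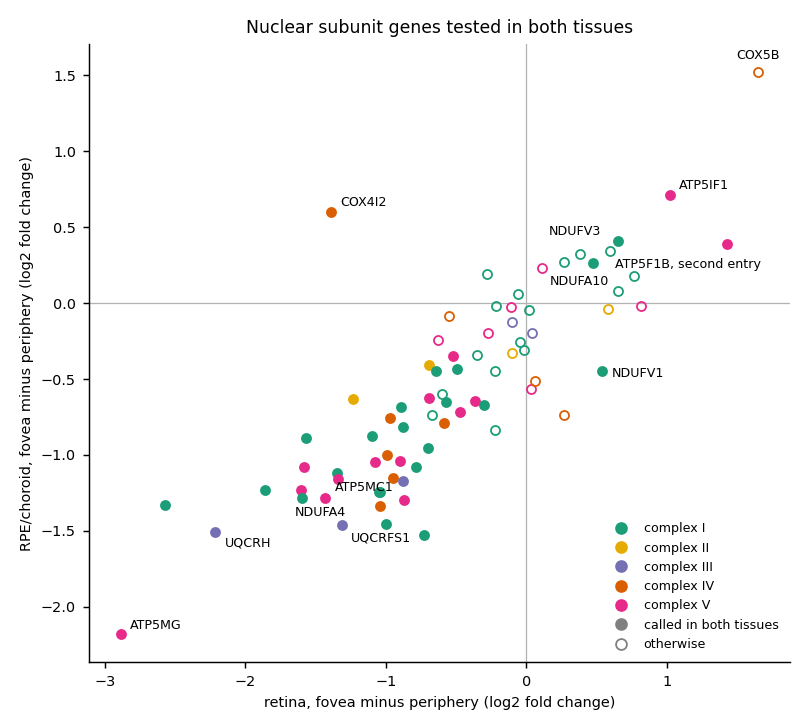
Log2 fold change of fovea over periphery in the retina (horizontal axis) and in the RPE/choroid (vertical axis) for members tested in both tissues and reported here. Most points lie in the lower left, lower at the fovea in each tissue, whereas NDUFV1 and COX4I2 are called on opposite sides.

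The flow cell limits how this comparison can be read. In the retina 38 of 80 members (47.5%) had all 4 periphery libraries above all 12 others, against 13.8% of all genes, and in the RPE/choroid 40 of 78 (51.3%) had, against 8.7% of all genes. ATP5MG, subunit g of the membrane part of ATP synthase, had the largest difference of them in the retina. It had 8.86, 8.42, 7.30 and 7.79 CPM in foveal retina, 10.6, 9.50, 9.71 and 9.35 at the perimacula, 10.4, 8.51, 9.40 and 9.46 at the nasal site, and 68.5, 69.9, 64.5 and 46.8 CPM at the periphery (CPM, counts scaled to a fixed library size after TMM correction). The RPE/choroid gave 7.91, 8.47, 8.75 and 7.66 CPM at the fovea and 51.1, 31.9, 29.7 and 36.1 CPM at the periphery. The 4 periphery libraries thus stood several-fold above the rest in each tissue, with a log2 fold change of -2.89 ± 0.11 (SE, adjusted p = 1.48e-08) in the retina and -2.18 ± 0.16 (SE, adjusted p = 4.55e-06) in the RPE/choroid. This step is that of the ATP5MG entry, with a mean of 1251 counts per library. The entry assigned to ATP5MGL had a mean of 5061 counts and a symbol with no supporting orthology source. In the RPE/choroid, ATP5MGL was not called for fovea over periphery (-0.25 ± 0.11 SE, adjusted p = 0.0979). It was called for perimacula over periphery there (-0.49 ± 0.11 SE, adjusted p = 0.00618).

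Complex I accepts electrons from NADH at its peripheral arm, and the core subunits described here did not move alike. NDUFV1, the flavoprotein that binds NADH, had 109, 142, 145 and 149 CPM in foveal retina and 102, 66.8, 111 and 112 CPM at the periphery, with perimacula values of 80.9, 111, 114 and 107. The fovea was above the periphery in each eye, although the right eye of RM03 lies within the range of the periphery, and the log2 fold change was 0.54 ± 0.14 (SE, adjusted p = 0.00368). The order was turned in the RPE/choroid, with 58.95, 58.3, 62.2 and 65.8 CPM at the fovea and 87.3, 62.8, 90.9 and 93.1 CPM at the periphery. The log2 fold change was -0.45 ± 0.10 (SE, adjusted p = 0.00414) and lost its call without the left eye of RM04 (adjusted p = 0.0514).

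NDUFS1, the large iron-sulfur subunit of the same arm, had 102, 99.1, 100 and 101 CPM in foveal and 106, 114, 108 and 95.2 CPM in peripheral retina, and its log2 fold change of -0.02 ± 0.08 (SE) was not called (adjusted p = 0.856).

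Several accessory subunits were also higher at the retinal fovea. NDUFV3, an accessory protein of the NADH-binding part, had 75.0, 74.3, 97.5 and 105 CPM at the fovea and 53.4, 52.5, 67.7 and 56.5 CPM at the periphery of the retina, so that no library overlapped (log2 fold change 0.65 ± 0.087 SE, adjusted p = 3.34e-05). It was likewise higher at the fovea of the RPE/choroid, by 0.41 ± 0.085 on the log2 scale (SE, adjusted p = 0.00282). NDUFA10, of the membrane arm, was higher by 0.48 ± 0.083 in the retina (SE, adjusted p = 0.000286) and by 0.26 ± 0.080 in the RPE/choroid (SE, adjusted p = 0.0211), where the call was lost without the right eye of RM03 (0.0727), its left eye (0.0593) or the right eye of RM04 (0.0717). NDUFV3 and NDUFA10 are thus 2 of the 4 members higher at the fovea in both tissues.

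Other complex I members were called the opposite way, and some of them had larger differences. NDUFB1, a small membrane arm subunit, had 32.8, 30.5, 25.6 and 28.6 CPM at the fovea and 107, 123, 122 and 89.6 CPM at the periphery of the retina (log2 fold change -1.86 ± 0.11 SE, adjusted p = 8.45e-08). NDUFS4, an accessory subunit whose loss causes Leigh syndrome, had 52.3, 45.1, 37.2 and 42.0 CPM at the fovea and 144, 153, 137 and 108 CPM at the periphery (log2 fold change -1.57 ± 0.094 SE, adjusted p = 1.07e-07). The log2 fold changes in the RPE/choroid were -1.23 ± 0.14 for NDUFB1 (SE, adjusted p = 5.89e-05) and -0.89 ± 0.098 for NDUFS4 (SE, adjusted p = 5.35e-05). NDUFB3, of the membrane arm, had the larger difference in the RPE/choroid: it had 23.8, 19.8, 21.4 and 19.1 CPM at the fovea and 74.4, 63.4, 53.4 and 51.4 CPM at the periphery, with a log2 fold change of -1.52 ± 0.098 (SE, adjusted p = 2.16e-06) against -0.73 ± 0.12 in the retina (SE, adjusted p = 0.000134).

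Complex II, which is also the succinate dehydrogenase of the tricarboxylic acid cycle, had subunits that did not move alike. SDHA, the flavoprotein that oxidizes succinate, had 373, 382, 278 and 272 CPM at the fovea, 293, 298, 236 and 246 at the perimacula, 260, 256, 223 and 226 at the nasal site and 260, 217, 206 and 214 CPM at the periphery of the retina. Every eye fell from the fovea to the periphery, and the log2 fold change of fovea over periphery was 0.58 ± 0.078 (SE, adjusted p = 3.77e-05). RPE/choroid had 205, 198, 167 and 165 CPM at the fovea and 206, 197, 166 and 179 CPM at the periphery, with no call (log2 fold change -0.04 ± 0.055 SE, adjusted p = 0.624). SDHB, the iron-sulfur subunit, was not called in the retina (-0.10 ± 0.11 SE, adjusted p = 0.436) and was lower at the fovea in the RPE/choroid (-0.33 ± 0.079 SE, adjusted p = 0.00656, lost without the left eye of RM04 with 0.0528).

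SDHC, a membrane anchor of the complex, had 28.3, 28.9, 22.7 and 24.5 CPM at the fovea and 69.8, 67.2, 67.7 and 49.2 CPM at the periphery of the retina. The groups did not overlap, and the log2 fold change was -1.23 ± 0.098 in the retina (SE, adjusted p = 5.93e-07) and -0.63 ± 0.10 in the RPE/choroid (SE, adjusted p = 0.000589). SDHA and SDHC of the same complex therefore differed in sign in the retina. SDHD, the other anchor, differed mainly between the monkeys and is described with them.

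Complex III, which moves electrons from ubiquinol to cytochrome c, had the lowest median log2 fold changes, -1.09 in the retina and -1.17 in the RPE/choroid. The RPE/choroid median is the value of the UQCRB entry, at 0.111 to 1.08 CPM there and with no supporting orthology source. The retina median also includes both tested UQCRB entries, which had few counts, so that the rank of the complex rests partly on them. UQCRFS1, the Rieske iron-sulfur protein, had 38.0, 31.7, 30.4 and 35.8 CPM at the fovea and 95.5, 90.8, 84.7 and 79.6 CPM at the periphery of the retina (log2 fold change -1.31 ± 0.093 SE, adjusted p = 2.82e-07). The RPE/choroid gave 20.6, 20.02, 20.3 and 23.4 CPM against 65.6, 50.5, 52.7 and 61.4 CPM (-1.46 ± 0.11 SE, adjusted p = 5.61e-06). In each tissue the lowest periphery value was more than 2 times the highest foveal one.

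UQCRH, the hinge protein that helps bind cytochrome c1, had 16.2, 17.6, 12.4 and 14.7 CPM at the fovea of the retina, 25.1, 24.9, 20.9 and 17.9 at the perimacula, 25.2, 20.7, 20.4 and 22.9 at the nasal site and 83.2, 86.1, 69.4 and 55.8 CPM at the periphery. It is a member whose foveal libraries lay below all other retina libraries, with log2 fold changes of -2.21 ± 0.089 against the periphery (SE, adjusted p = 2.24e-08), -0.48 ± 0.087 against the perimacula (SE, adjusted p = 0.00137) and -0.53 ± 0.10 against the nasal site (SE, adjusted p = 0.000506). The RPE/choroid showed the step at the periphery only, where 4 values of 51.7, 27.3, 32.01 and 33.6 CPM stood against 9.11, 12.6, 16.4 and 13.5 CPM at the fovea (-1.51 ± 0.22 SE, adjusted p = 0.000312). The core proteins UQCRC1 and UQCRC2, which scaffold the complex, were not called between fovea and periphery in either tissue. UQCRC2 had 265, 265, 274 and 277 CPM at the fovea and 290, 307, 312 and 295 CPM at the periphery of the retina (-0.10 ± 0.061 SE, adjusted p = 0.154).

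Complex IV reduces oxygen, and its nuclear subunits regulate and assemble a catalytic core encoded by mitochondrial DNA. COX4I1, the common form of the largest nuclear subunit, had 234, 209, 184 and 193 CPM at the fovea and 366, 325, 313 and 272 CPM at the periphery of the retina (log2 fold change -0.58 ± 0.076 SE, adjusted p = 2.76e-05). The RPE/choroid had 167, 209, 194 and 159 CPM against 392, 288, 283 and 293 CPM (-0.79 ± 0.12 SE, adjusted p = 0.000339), so that neither tissue had an overlap. COX5A, which surrounds the core on the matrix side, was lower at the fovea in the retina (-0.55 ± 0.12 SE, adjusted p = 0.00121) and was not called in the RPE/choroid (-0.08 ± 0.12 SE, adjusted p = 0.614). COX6C, COX6B1 and COX7B, small nuclear subunits, were lower at the fovea in both tissues. COX7AH, matched to COX7A1, had 13.9, 16.4, 14.2 and 12.7 CPM at the fovea and 27.3, 24.6, 39.9 and 27.2 CPM at the periphery of the retina (-0.99 ± 0.15 SE, adjusted p = 9.38e-05), and its log2 fold change in the RPE/choroid was -0.998 ± 0.099 (SE, adjusted p = 2.68e-05).

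COX4I2, the paralogue of COX4I1 that is known from lung and from the response to low oxygen, went opposite ways in the tissues. The retina had 2.79, 2.85, 1.88 and 2.07 CPM at the fovea and 7.87, 4.997, 6.39 and 6.11 CPM at the periphery (log2 fold change -1.39 ± 0.21 SE, adjusted p = 8.28e-05). The RPE/choroid had 10.1, 13.1, 14.8 and 14.1 CPM at the fovea and 8.61, 10.5, 7.96 and 6.91 CPM at the periphery (0.60 ± 0.17 SE, adjusted p = 0.0158). The RPE/choroid call was lost without the right eye of RM04 (adjusted p = 0.115) or its left eye (0.0919). Smooth muscle and pericyte markers were also higher at the fovea of the RPE/choroid, as given above.

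Complex V makes ATP from the proton gradient. ATP5F1A, the alpha subunit of its catalytic head, had 831, 826, 734 and 818 CPM at the fovea and 838, 804, 818 and 787 CPM at the periphery of the retina, which overlap (log2 fold change 0.04 ± 0.067 SE, adjusted p = 0.654). It was lower elsewhere, with 677, 654, 617 and 687 CPM at the perimacula and 660, 564, 630 and 630 CPM at the nasal site. The RPE/choroid had 330, 288, 347 and 346 CPM at the fovea and 517, 403, 442 and 565 CPM at the periphery (-0.57 ± 0.10 SE, adjusted p = 0.00115). ATP5F1B, the catalytic beta subunit, was lower at the fovea in the retina by its main entry (-0.36 ± 0.13 SE, adjusted p = 0.0255), a call that ended without the right eye of RM04 (0.111). The second entry of ATP5F1B went the other way (1.43 on the log2 scale, adjusted p = 0.0300), and this call was lost in a fit with the eye as a block (0.0575) and without the right or left eye of RM03 (0.0521 and 0.0831) or the right eye of RM04 (0.144). With the entries of ATP5F1B summed, the log2 fold change in the retina was 0.08 ± 0.084 (SE, adjusted p = 0.443), so that no direction is given for the gene there.

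**Figure D3:**
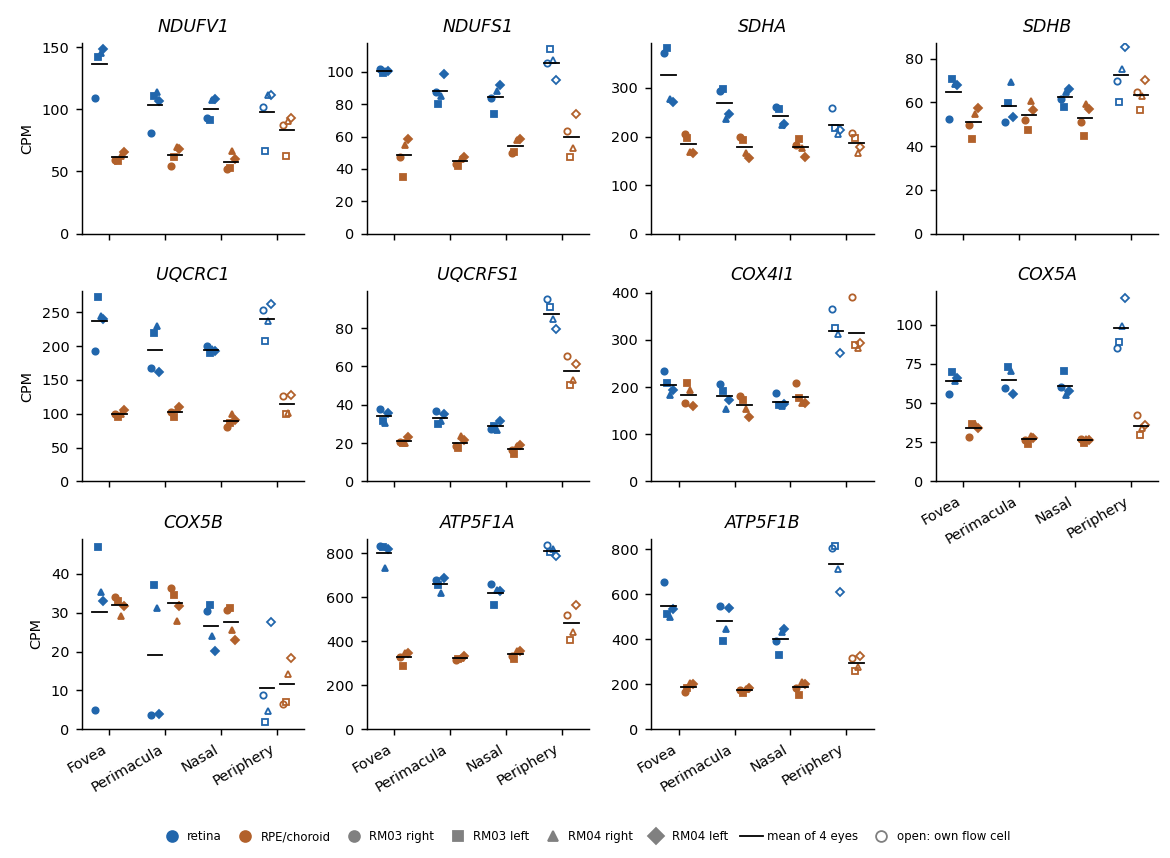
Level, in TMM-normalized CPM, of core subunits of the complexes in each library, by tissue and location. Points are eyes and bars are group means; SDHA falls from the fovea outwards in retina, COX4I1 and UQCRFS1 step up at the periphery of both tissues, and ATP5F1A is lower at the perimacula and nasal site than at the fovea and periphery in retina.

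ATP5IF1, the protein that inhibits ATP hydrolysis by complex V, was higher at the fovea in both tissues. It had 86.2, 132, 119 and 125 CPM at the fovea and 60.1, 43.6, 59.4 and 74.3 CPM at the periphery of the retina (log2 fold change 1.02 ± 0.20 SE, adjusted p = 0.000590). The RPE/choroid had 81.2, 72.5, 81.9 and 72.5 CPM against 51.5, 26.7, 54.2 and 56.2 CPM (0.71 ± 0.18 SE, adjusted p = 0.00880). No library of the groups overlapped in either tissue. In the retina its levels moved with those of COX5B, as described below.

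Subunit c, which forms the rotating ring, is encoded by 3 genes whose mature proteins are identical, and these did not move alike. ATP5MC1 had 42.9, 49.0, 40.2 and 36.3 CPM at the fovea and 124, 111, 127 and 107 CPM at the periphery of the retina (log2 fold change -1.43 ± 0.098 SE, adjusted p = 2.33e-07), and -1.29 ± 0.075 on the log2 scale in the RPE/choroid (SE, adjusted p = 1.28e-06). ATP5MC3 had smaller differences, -0.47 ± 0.084 in the retina (SE, adjusted p = 0.000324) and -0.72 ± 0.095 in the RPE/choroid (SE, adjusted p = 0.000160). ATP5G2, matched to ATP5MC2, had 235, 209, 186 and 212 CPM at the fovea and 196, 190, 245 and 177 CPM at the periphery of the retina and was called in neither tissue (0.11 ± 0.11, adjusted p = 0.400, and 0.23 ± 0.097, adjusted p = 0.0767, SE).

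Within the 3 subunit c genes, ATP5MC1 therefore took 12.3 ± 1.10% of the estimated counts at the fovea of the retina, 12.6 ± 1.49% at the perimacula, 12.9 ± 0.679% at the nasal site and 26.1 ± 0.844% at the periphery (SD, n = 4). The shares in the RPE/choroid were 8.23 ± 0.453%, 9.37 ± 0.842%, 9.01 ± 0.457% and 18.4 ± 2.81% (SD, n = 4). These are shares of counts and not of molecules, as transcript lengths were not used here. The periphery libraries stood above all the others.

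The other paralogue pairs gave ratios that separated the tissues. COX4I2 amounted to 1.16 ± 0.151% of COX4I1 at the fovea of the retina and 7.20 ± 1.30% at that of the RPE/choroid (SD, n = 4), and to 1.99 ± 0.317% and 2.75 ± 0.651% at the periphery. The tissues did not overlap at the fovea (highest retina value 1.36%, lowest RPE/choroid value 6.07%), while at the periphery they did (highest 2.25%, lowest 2.20%). NDUFA4L2, a paralogue of NDUFA4 known to be induced by low oxygen, amounted to 4.51 ± 0.544% of NDUFA4 at the fovea of the retina and 1.02 ± 0.319% at its periphery, against 23.9 ± 3.28% and 8.28 ± 4.28% in the RPE/choroid (SD, n = 4).

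**Figure D4:**
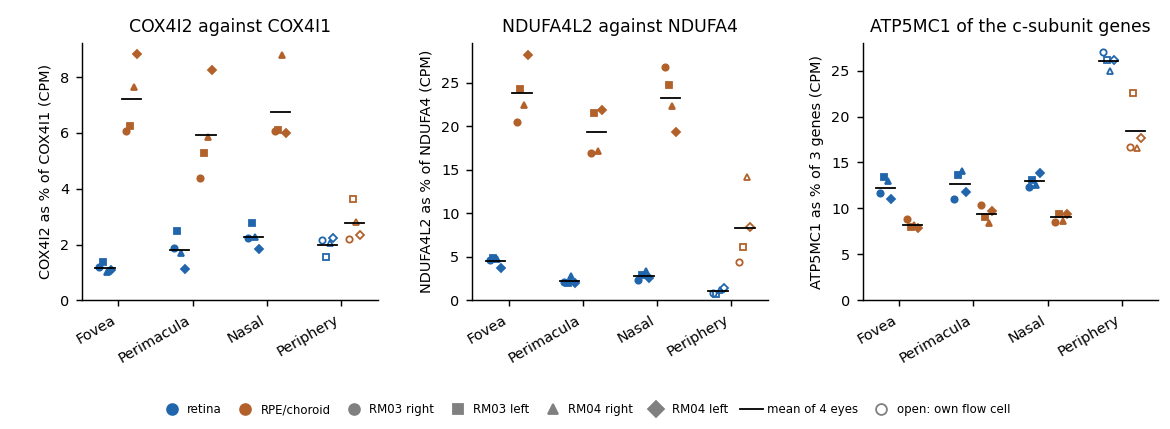
Ratios of estimated counts within paralogue groups in each library, in percent: COX4I2 to COX4I1, NDUFA4L2 to NDUFA4, and ATP5MC1 as a share of the 3 subunit c genes. Points are eyes; the first and second ratios are higher in RPE/choroid than in retina at the fovea, and the ATP5MC1 share is higher at the periphery of each tissue.

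NDUFA4 itself, of which most counts come from 1 of several entries, had 198, 172, 156 and 159 CPM at the fovea and 531, 572, 583 and 462 CPM at the periphery of the retina (log2 fold change -1.60 ± 0.087 SE, adjusted p = 7.39e-08). NDUFA4L2 had 9.27, 8.41, 7.48 and 5.88 CPM at the fovea and 4.48, 3.92, 6.85 and 6.43 CPM at the periphery of the retina, a log2 fold change of 0.59 ± 0.20 (SE, adjusted p = 0.0224) that was lost without the right eye of RM03 (0.152) or its left eye (0.157). In RM04 the foveal and peripheral values lie close to each other. NDUFA4L2 was not called between fovea and periphery of the RPE/choroid (0.34 ± 0.20 SE, adjusted p = 0.179).

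The fovea was next set against the perimacula and the nasal site, comparisons within the shared flow cells. In the retina 9 of 80 members were higher and 2 lower at the fovea than at the perimacula (of all genes 19% were called higher and 16.2% lower), and 19 were higher and 5 lower than at the nasal site (of all genes 25.1% and 27.2%). The median log2 fold changes of the members were 0.04 and 0.11, and those of all genes were 0.01 and -0.04. By complex, the counts against the nasal site were 9 higher and 2 lower for complex I, 1 and 0 for complex II, 3 and 1 for complex III, 3 and 1 for complex IV and 3 and 1 for complex V. Without the right eye of RM03 the fovea and perimacula differed for 1 member in the higher and 2 in the lower direction, and without the right eye of RM04 for 2 and 1.

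The members higher at the fovea than at the nasal site (23.75% of those tested, near the 25.1% of all genes) included core subunits of each complex. ATP5F1A had a log2 fold change of 0.41 ± 0.063 (SE, adjusted p = 7.09e-05) and SDHA of 0.46 ± 0.072 (SE, adjusted p = 8.68e-05). NDUFV1 was higher by 0.48 ± 0.13 (SE, adjusted p = 0.00566), NDUFS1 by 0.29 ± 0.072 (SE, adjusted p = 0.00355) and COX4I1 by 0.32 ± 0.072 (SE, adjusted p = 0.00190). UQCRFS1 was higher by 0.27 ± 0.083 (SE, adjusted p = 0.0133, lost without the right eye of RM03 with 0.0749), and UQCRC1 by 0.33 ± 0.13 (SE, adjusted p = 0.0431), a call that ended with the eye as a block (0.0531) and without the left eye of RM03 (0.151), the right eye of RM04 (0.127) or its left eye (0.0808). ATP5F1A was also higher than at the perimacula (0.34 ± 0.067 SE, adjusted p = 0.00239), with no overlap between the 4 foveal and the 4 perimacular libraries.

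Other calls against the perimacula were less steady. SDHA was higher by 0.33 ± 0.078 (SE, adjusted p = 0.00654), lost without the right eye of RM03 (0.0884) or of RM04 (0.0569). NDUFV1, higher by 0.46 ± 0.14 (SE, adjusted p = 0.0202), was lost without the right eye of RM03 (0.0830), the right eye of RM04 (0.129) or its left eye (0.134). COX4I1, higher by 0.23 ± 0.076 (SE, adjusted p = 0.0325), was lost without any single eye (0.0860 to 0.145). NDUFS1 and NDUFV3 (0.25 each on the log2 scale, adjusted p = 0.0308 and 0.0424) were lost with the eye as a block (0.0575 and 0.0701) and without the right eye of RM03 (0.168 and 0.181), its left eye (0.144 and 0.195) or the right eye of RM04 (0.126 and 0.167). NDUFA4L2, higher by 0.84 ± 0.21 (SE, adjusted p = 0.00802), was lost without the right or left eye of RM03 (0.0740 and 0.0571).

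Members lower at the fovea than at the nasal site were UQCRH, COX4I2, ATP5S, NDUFS4 and NDUFA4. COX4I2 (-0.65 ± 0.19 SE, adjusted p = 0.0112) was lost without the right eye of RM03 (0.0611) or of RM04 (0.0888). NDUFS4 (-0.24 ± 0.085 SE, adjusted p = 0.0295) was lost without the right eye of RM03 (0.0985), the right eye of RM04 (0.169) or its left eye (0.0954). NDUFA4 (-0.26 ± 0.10 SE, adjusted p = 0.0436) was lost with the eye as a block (0.0568) and without the right eye of RM03 (0.0651) or either eye of RM04 (0.208 and 0.287).

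For 9 members the fovea was called lower than the periphery and higher than the nasal site of the retina. They were ATP5F1B, ATP5PD, COX4I1, COX6B1, NDUFA9, NDUFB6, NDUFS5, UQCRB and UQCRFS1, and both comparisons use the same foveal libraries. How many of all genes had this pair of calls was not counted, so that the 9 are not read as particular to the members. The UQCRB entry lay between 0.162 and 0.854 CPM in the retina, and its symbol has no supporting orthology source. For COX4I1 the log2 fold changes were -0.58 against the periphery and 0.32 against the nasal site, and for UQCRFS1 they were -1.31 and 0.27. ATP5F1B is counted here by its main entry alone, and with its entries summed the fovea was not called against the periphery, as given above. The periphery side of each of these contrasts rests on the libraries with their own flow cell.

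In the RPE/choroid no member was called between fovea and perimacula or between fovea and nasal site by edgeR's quasi-likelihood test. Of all genes, 0.0447% were called in the first and 0.361% in the second comparison. At an unadjusted p below 0.05 there were 6 of 78 members in each, and DESeq2 called 0 in each. By eye, 15 of 78 members were higher at the fovea than at the perimacula in all 4 eyes and 4 were lower in all 4, against 13.8% and 14.4% of all genes. The perimacula compared with the periphery gave 4 members higher and 53 lower in the RPE/choroid (17.7% and 17.2% of all genes), and 7 higher and 51 lower in the retina (23.4% and 26.9% of all genes).

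Retina and RPE/choroid of a location were run on the same flow cells, and between them most called members were higher in the retina. At the fovea 45 of 82 tested members were higher in the retina and 9 in the RPE/choroid, where 37.8% and 36.8% of all 16284 genes were called. The counts were 52 and 8 at the perimacula (37.8% and 37.8% of all genes), 49 and 10 at the nasal site (37.6% and 38.6%) and 42 and 4 at the periphery (37.2% and 37.1%). The median log2 difference of the members was 0.50 at the fovea, 0.60 at the perimacula, 0.44 at the nasal site and 0.38 at the periphery, against 0.04 for all genes at the fovea. Complex III had the highest median at the fovea, 0.90, followed by complex V with 0.68, complex I with 0.50, complex IV with 0.21 and complex II with -0.02. The complex III median includes both tested UQCRB entries, which had few counts.

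Of the 82 members, 35 were higher in the retina at all 4 locations and 4 were higher in the RPE/choroid at all 4, against 27% and 28.3% of all genes. No member was called in opposite directions at different locations. The 35 include the core subunits ATP5F1A, ATP5F1B, NDUFS1, SDHA, UQCRC1, UQCRFS1 and COX5A. ATP5F1A was higher in the retina by 1.33 ± 0.099 at the fovea and 0.75 ± 0.098 at the periphery on the log2 scale (SE, adjusted p = 1.65e-10 and 8.01e-07). ATP5F1B, by its main entry, gave 1.57 ± 0.13 and 1.32 ± 0.13 (SE, adjusted p = 7.31e-10 and 1.13e-08). UQCRC2 had 265, 265, 274 and 277 CPM in foveal retina and 124, 124, 145 and 138 CPM in foveal RPE/choroid, differences of 1.07 ± 0.062 at the fovea and 1.07 ± 0.062 at the periphery (SE, adjusted p = 3.02e-12 and 3.95e-12). UQCRC1 gave 1.29 ± 0.13 at the fovea and COX5A gave 0.96 ± 0.13 (SE, adjusted p = 1.75e-08 and 9.04e-07).

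The 4 members higher in the RPE/choroid at every location were NDUFA4L2, COX7AH, COX7A2L and the third entry of ATP5PB. NDUFA4L2 had 16.4, 18.7, 21.6 and 25.4 CPM in foveal RPE/choroid against 9.27, 8.41, 7.48 and 5.88 CPM in foveal retina, and its log2 difference of retina over RPE/choroid was -1.32 ± 0.22 at the fovea and -1.60 ± 0.22 at the periphery (SE, adjusted p = 1.90e-05 and 1.83e-06). COX7AH had 22.1, 23.7, 25.2 and 22.5 CPM against 13.9, 16.4, 14.2 and 12.7 CPM, and its difference lay between -0.64 and -0.76 at the 4 locations (adjusted p = 0.000157 at the fovea). COX7A2L, a relative of COX7A that takes part in joining complexes III and IV, was at 0 in 14 of 16 retina libraries and between 1.503 and 10.4 CPM in the RPE/choroid libraries, so that no fold is given. This entry has 1 supporting orthology source, while the second entry of COX7A2L has 5 and had a mean of 0.034 counts per library. The level of the gene in the retina is therefore not read from it. The third entry of ATP5PB was under 2 CPM in every library, and its symbol has no orthology support.

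COX4I2 was higher in the RPE/choroid at the fovea, the perimacula and the nasal site but not called at the periphery. The log2 differences of retina over RPE/choroid were -2.43 ± 0.24, -1.51 ± 0.23, -1.66 ± 0.21 and -0.41 ± 0.22 (SE, adjusted p = 1.11e-08, 5.78e-06, 9.25e-08 and 0.107). Its partner COX4I1 was called at none of these locations (0.21 ± 0.10 at the fovea and 0.02 ± 0.10 at the periphery, SE). It belongs to 16 members without a call between the tissues anywhere, with COX5B, COX7B, NDUFS3, NDUFS6, NDUFS7, NDUFS8 and others.

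The tissue difference in the change from fovea to periphery was tested directly. Of 82 members, 10 had a higher and 8 a lower log2 ratio of fovea to periphery in the retina than in the RPE/choroid (of all genes, 19% and 21.2%). COX4I2 gave a difference of -2.02 ± 0.32 (SE, adjusted p = 5.39e-05), from -1.39 in the retina and 0.60 in the RPE/choroid. NDUFV1 gave 0.97 ± 0.18 (SE, adjusted p = 0.000309), from 0.54 and -0.45. SDHA gave 0.60 ± 0.098 (SE, adjusted p = 7.96e-05) and ATP5F1A 0.58 ± 0.14 (SE, adjusted p = 0.00221).

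COX7C, a small complex IV subunit, gave 0.98 ± 0.20 (SE, adjusted p = 0.000572): it had 208, 169, 170 and 198 CPM at the fovea and 149, 156, 200 and 140 CPM at the periphery of the retina, against 99.7, 114, 120 and 102 and then 228, 188, 152 and 157 CPM in the RPE/choroid. The retina values overlap and those of the RPE/choroid do not. NDUFB3 gave 0.77 ± 0.16 (SE, adjusted p = 0.000574). In the opposite direction were NDUFS4 (-0.71 ± 0.17 SE, adjusted p = 0.00200), lost without the right eye of RM04 (0.0596), SDHC (-0.62 ± 0.16 SE, adjusted p = 0.00367), lost without the same eye (0.0999), and ATP5MG (-0.73 ± 0.19 SE, adjusted p = 0.00417), lost without it too (0.0987). NDUFB1 (-0.65 ± 0.18 SE, adjusted p = 0.00698) was lost without the left eye of RM03 (0.0519) or the right eye of RM04 (0.132). UQCRH (-0.76 ± 0.28 SE, adjusted p = 0.0348) was lost without the left eye of RM03 (0.135), the right eye of RM04 (0.300) or its left eye (0.0854), and COX5A (-0.49 ± 0.18 SE, adjusted p = 0.0350) without the same 3 eyes (0.0898, 0.209 and 0.147).

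Within the shared flow cells, UQCRH was the single member whose difference between fovea and perimacula itself differed between the tissues (-0.98 ± 0.28 SE, adjusted p = 0.0273), where 5.85% and 5.64% of all genes were called higher and lower. It was lost without any single eye (0.0523 to 0.260). Between fovea and nasal site 4 members were higher and 4 lower (11% and 12.5% of all genes). SDHA gave 0.38 ± 0.087 (SE, adjusted p = 0.00218) and ATP5F1A 0.43 ± 0.12 (SE, adjusted p = 0.00755). SDHA and ATP5F1A thus each had a called tissue difference both against the periphery and against the nasal site, 2 comparisons that share the foveal libraries.

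Some members separated by animal at every location, and some of these differed by place as well. The first entry of NDUFA1, a membrane arm subunit, was between 66.4 and 142 CPM in the retina of RM04 and between 0.0651 and 0.144 CPM in that of RM03, while the second entry was between 68.6 and 135 CPM in RM03 and between 0.0369 and 0.343 CPM in RM04. The entries thus replaced each other between the monkeys, in the RPE/choroid as well. Summed over its entries NDUFA1 had 73.7 CPM at the fovea and 122.7 CPM at the periphery of the retina, and the log2 fold change of the sum was -0.69 ± 0.12 (SE, adjusted p = 0.000335). SDHD had 38.1 and 35.6 CPM in the foveal retina of RM03 against 7.23 and 8.07 CPM in that of RM04, and 74.7 and 78.0 CPM against 10.5 and 9.54 CPM at the periphery. With SDHC it was called lower at the fovea than at the periphery of the retina. It was also called lower there in the RPE/choroid (log2 fold change -0.41 ± 0.13 SE, adjusted p = 0.0226). NDUFA3, another membrane arm subunit, was between 9.91 and 16.04 CPM in the retina of RM03 and between 18.1 and 30.8 CPM in that of RM04. In the retina 5 of 80 members and in the RPE/choroid 6 of 78 had no overlap between the monkeys over all locations, against 3.78% and 5.12% of all genes. With 2 animals, these are values of those animals.

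COX5B, which binds zinc on the matrix side of complex IV, varied widely among eyes. Foveal retina had 5.09, 46.8, 35.2 and 33.1 CPM, the perimacula 3.78, 37.1, 31.3 and 3.87, the nasal site 30.3, 31.9, 24.1 and 20.1, and the periphery 8.70, 1.76, 4.59 and 27.7 CPM. The low retina libraries are thus 1 eye at the fovea, 2 at the perimacula and 3 of 4 at the periphery, and the log2 fold change of fovea over periphery, 1.65 ± 0.94 (SE), was not called (adjusted p = 0.141). In the RPE/choroid the foveal values of 34.1, 33.1, 29.1 and 31.8 CPM all lay above the peripheral values of 6.599, 7.05, 14.3 and 18.3 CPM (1.52 ± 0.28 SE, adjusted p = 0.00126).

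Across the 16 retina libraries, 12 of 68 other members with a mean of at least 10 CPM had a Pearson correlation with COX5B above 0.8 in their log-scale deviations from the mean of each location, where 8.08% of 10333 genes had. The closest were NDUFS6 (0.98), NDUFB11 (0.97), NDUFS7 (0.97), ATP5IF1 (0.97) and NDUFS8 (0.95). NDUFA5, ATP5F1B, ATP5PF and ATP5PB were below -0.8, as were 2.32% of the genes. These correlations are a description of libraries that share eyes and animals. They were not tested.

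**Figure D5:**
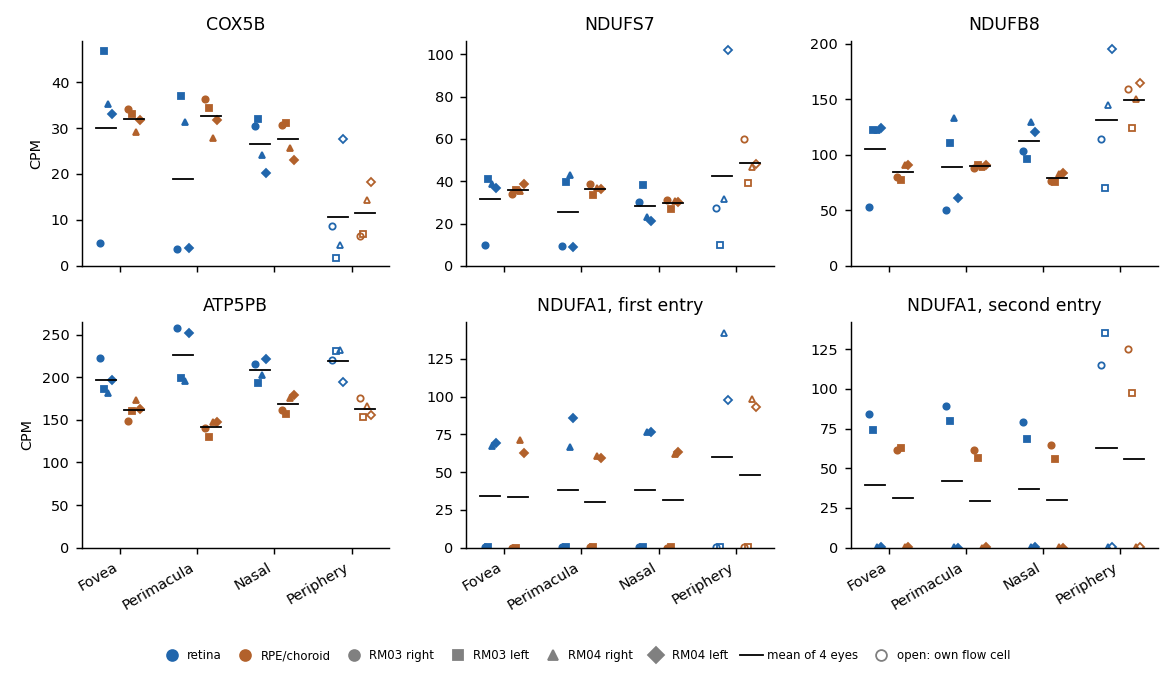
Levels, in TMM-normalized CPM, of members that vary by eye or by monkey, in each library by location and tissue. The NDUFA1 entries separate RM03 from RM04, and COX5B is low in 1 foveal, 2 perimacular and 3 peripheral retina libraries.

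Genes that serve the complexes were counted in the same comparisons. Among assembly factors of the respiratory complexes, 3 of 38 were higher and 18 lower at the fovea than at the periphery of the retina (31% and 36% of all genes), and 4 of 37 were higher and 25 lower in the RPE/choroid (21.2% and 22.9% of all genes). The entries with symbols of subunits encoded by mitochondrial DNA went the other way in the RPE/choroid, with 8 of 14 higher and 1 lower. They had 5 higher and 2 lower in the retina, where 5 of 14 is near the share of all genes. The 14 entries came from a list of 26 symbols, 2 for each gene, so that at least 1 gene has 2 entries. The tricarboxylic acid cycle and pyruvate dehydrogenase list, which supplies NADH and succinate, had 15 of 26 higher and 7 lower at the fovea than at the periphery of the retina, and 16 of 26 higher and 2 lower than at the nasal site (25.1% and 27.2% of all genes). Of that list in the RPE/choroid, 5 of 26 were higher and 8 lower at the fovea than at the periphery (21.2% and 22.9% of all genes). The higher count there is near the share of all genes. CS, citrate synthase, was higher at the retinal fovea by 0.44 ± 0.067 against the periphery and 0.36 ± 0.053 against the nasal site (SE, adjusted p = 9.02e-05 and 5.34e-05).

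Among electron carriers, the nucleotide carrier and outer membrane channels, 4 of 23 were higher and 9 lower at the fovea than at the periphery of the retina. Of all genes 31% were higher and 36% lower, so that the lower count is near its share. Against the nasal site 9 were higher and 1 lower (25.1% and 27.2% of all genes). CYC1, cytochrome c1 of complex III, gave -0.28 ± 0.089 and 0.33 ± 0.093 in these comparisons (SE, adjusted p = 0.0139 and 0.00828), the signs that UQCRFS1 had. Of 13 regulators of mitochondrial biogenesis, 2 were higher and 8 lower at the fovea than at the periphery of the retina (31% and 36% of all genes). PPARGC1A, a coactivator known for driving that process, was among the higher ones, with a mean of 95.6 ± 11.1 CPM at the fovea, 69.9 ± 12.7 at the perimacula, 53.7 ± 4.88 at the nasal site and 33.4 ± 11.2 CPM at the periphery (SD, n = 4). Its log2 fold changes of fovea over the other locations were 0.50 ± 0.16 for the perimacula, 0.87 ± 0.14 for the nasal site and 1.61 ± 0.16 for the periphery (SE, adjusted p = 0.0295, 8.76e-05 and 3.54e-06).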

How the data were processed

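RNA-seq of 2 mm punches was carried out by the authors on retina and RPE/choroid at 4 locations of 4 macaque eyes. Per the study's methods, the authors quantified reads with Salmon 0.13 against Mmul_8.0.1, and the deposited values are estimated counts (length-scaled TPM from tximport), one table for each of 136 lanes, with symbols assigned by orthology. The deposited expected counts of 2 or 5 lanes, with lane totals between 7932259 and 39439054, were summed for each of 32 libraries and rounded for the tests. The 19432 rows hold 19422 different identifiers, and rows of an identifier were counted once.

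Libraries were scaled by TMM (factors 0.896 to 1.089) in edgeR 4.0.16 with limma 3.58.1 and R 4.3.3. Low counts were removed with filterByExpr at a minimum of 10, and edgeR's quasi-likelihood test was fitted with a term for the monkey, for 15 comparisons, and p-values were adjusted by Benjamini-Hochberg across every gene tested (threshold 0.05). Fovea, perimacula and periphery of a tissue were fitted together, the nasal location was added for its own comparisons, and both tissues entered the tissue comparisons. The SE of a log2 fold change was taken from the F statistic. Tables were made with Python 3.11.15, numpy 2.4.6 and pandas 2.3.3, and figures with matplotlib 3.10.9. The scripts were tested on simulated data. DESeq2 1.42.0, RLE scaling, other filters, other samples in the fit, no covariate, fewer lanes, summed entries and each eye left out were tried as alternatives.

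The members and lists were chosen with earlier results of these data known. Genes were named by rule: the subunits called core above, paralogue pairs, ATP5IF1 and the most variable member per tissue. The rule also took the 3 largest called changes per direction and comparison. Not all of the subunits called core are catalytic. Other genes named above (NDUFV3, NDUFA10, NDUFB1, SDHC, SDHD, UQCRC2, COX6C and genes of the other pathway lists among them) were chosen after their values were seen. Same-numbered libraries are the same eye of the same animal by their labels, so that replicate numbers pair them. Over 1000 genes, deviations from group means had a mean correlation of 0.618 within an eye (lowest 0.113), 0.624 between fellow eyes and -0.622 between monkeys in the retina, and 0.441 (lowest 0.072), 0.492 and -0.465 in the RPE/choroid. Of 48 pairs of libraries within a group, the smallest variance was 4.322 times that of counting, so that no library was counted as a copy of another. 1 of the core subunits is counted among the members and not reported here by name. Promoter and protein sequences and transcript lengths were not used here.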

Additional observations from a re-analysis of the deposited data

Results flagged for a closer look

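Of 208 groups of 4 libraries examined, 10 held a library whose gap to its nearest neighbour exceeded Dixon's critical value, which chance alone exceeds in about 1 of 20 groups. The count of 10 is near that rate, so that the libraries below are listed as values and not read as true outliers. In the library of the right foveal retina of RM03, NDUFV1 was low at 109.3 CPM, SDHB at 52.48 CPM and the entry assigned to COX8A at 220.1 CPM, and this is also a library in which COX5B was low. COX4I1 was high in the right eye of RM03 at the nasal retina (188.2 CPM) and in the peripheral RPE/choroid (391.5 CPM). ATP5F1A was low in the right foveal retina of RM04 (733.6 CPM), ATP5G2 in the right foveal RPE/choroid of RM03 (222.8 CPM) and ATP5IF1 in the left peripheral RPE/choroid of RM03 (26.68 CPM). The summed share of all members was high in the left foveal retina of RM03 (0.8196%), and that of complex V was low in the left foveal RPE/choroid of RM03 (0.1528%).

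For the test of the difference between tissues 25 results are given here, as log2 differences of the retinal minus the RPE/choroid change. For fovea over periphery they include, in the positive direction, COX7C at 0.982, NDUFV1 at 0.97, the second entry of ATP5MD at 0.815, NDUFB3 at 0.773, SDHA at 0.596, ATP5F1A at 0.582, the entry assigned to COX8A at 0.552 and NDUFA12 at 0.548. In the negative direction they were COX4I2 at -2.022, the second entry of NDUFS5 at -1.245, UQCRH at -0.758, ATP5MG at -0.726, NDUFS4 at -0.714, NDUFB1 at -0.654, SDHC at -0.623 and COX5A at -0.488. The fitted value of COX7A2L, 6.91, rests on retina libraries at 0 and is no bound on a fold. For fovea over perimacula UQCRH gave -0.98. For fovea over the nasal site ATP5F1A gave 0.428, SDHA 0.377 and NDUFV3 0.375, while UQCRH gave -0.918, COX4I2 -0.81, NDUFS4 -0.569 and ATP5MGL -0.397. The call of COX4I2 in this last comparison was lost with the eye as a block (adjusted p = 0.0567) and without any single eye (0.0765 to 0.219), and that of NDUFS4 without the right or left eye of RM04 (0.161 and 0.0830).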

How the results depend on the processing

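No result changed direction under the alternatives run. Among the values for single members, 4627 kept their side of the threshold and 324 lost their call. The counts of members called for fovea against periphery, perimacula against periphery and the tissues at each location stayed within 1.5 times the reported count. With the eye as replicate block in place of the monkey, the retina gave 58 members for fovea against periphery and 9 for fovea against perimacula, the RPE/choroid gave 55 and 0, no count in any comparison moved by more than 1.5 times, and the block ended 9 calls of single members, given with the gene where the text rests on them. The scale without TMM factors moved the median of all genes from -0.059 to -0.187 for fovea over periphery in the RPE/choroid, where members were then 4 higher and 57 lower, and from 0.005 to 0.177 for the tissues at the nasal site. The cause of the shifts below was not tested.

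Fovea against perimacula in the retina (11 members) gave 6 with no covariate, 18 with the compared groups alone and 3 to 8 with each eye left out. Fovea against nasal retina (24) gave 15 with no covariate, and the RPE/choroid (0) gave 1 with the compared groups alone. The tissue difference for fovea over perimacula (1) gave 3 with DESeq2, 5 with the compared groups alone, 8 with all 4 locations, 0 with 2 lanes, 2 with summed entries and 0 to 2 with each eye left out. That for fovea over the nasal site (8) gave 3 with no covariate and 4 to 7 with each eye left out. The summed share moved by more than 1 SD with 1 entry per symbol (retina perimacula 0.6598 and nasal 0.6257%, RPE/choroid fovea 0.4147, perimacula 0.414 and nasal 0.3924%), after TMM scaling (retina nasal 0.6428%, RPE/choroid fovea 0.4591 and nasal 0.4455%, and retina over RPE/choroid of 1.278 for complex II and 1.64 for complex V) and with 2 lanes (retina nasal 0.643%, RPE/choroid perimacula 0.4196%). Entries under the count filter gave no test, and 4 eyes of 2 animals limit each error.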

Other observations

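Further mitochondrial and ribosomal lists were counted beside the members. Among mitochondrial ribosomal proteins, which build the subunits encoded by mitochondrial DNA, 6 of 78 were higher and 40 lower at the fovea than at the periphery of the retina (31% and 36% of all genes), and 4 of 78 higher and 44 lower in the RPE/choroid (21.2% and 22.9% of all genes). Their median log2 fold changes were -0.35 and -0.43. Against the nasal site of the retina, 14 were higher and 5 lower (25.1% and 27.2% of all genes). Import and cristae genes had 8 of 30 higher and 17 lower in the retina and 3 of 29 higher and 16 lower in the RPE/choroid against the periphery. The higher count in the retina is near the 31% of all genes. Cytosolic ribosomal proteins, which have no part in respiration, had 1 of 114 higher and 103 lower in the retina (median -1.45) and 2 of 116 higher and 82 lower in the RPE/choroid (median -0.70) at the fovea against the periphery. Between the tissues at the fovea, 28 of 78 mitochondrial ribosomal proteins were higher and 6 lower in the retina, while 7 of 126 cytosolic ones were higher and 94 lower (37.8% and 36.8% of all genes). The higher count of the mitochondrial ones (35.9%) is near the share of all genes. Their median log2 difference was 0.13, against -1.33 for the cytosolic ones.

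Genes that feed or steer respiration held large single differences, named here after their values were seen. PDK4, a kinase that blocks entry of pyruvate into the tricarboxylic acid cycle, had a mean of 1.93 ± 1.32 CPM at the fovea, 10.6 ± 4.05 at the perimacula, 18.4 ± 4.54 at the nasal site and 23.99 ± 6.11 CPM at the periphery (SD, n = 4, retina), with a log2 fold change of fovea over periphery of -3.74 ± 0.40 (SE, adjusted p = 6.10e-06). In the RPE/choroid it had 131.5 ± 39.8 CPM at the fovea and 59.8 ± 12.6 CPM at the periphery (SD, n = 4), a log2 fold change of 1.06 ± 0.20 (SE, adjusted p = 0.00182). VDAC1, a channel of the outer mitochondrial membrane, had 996.0 ± 124 CPM at the fovea and 269.7 ± 9.86 CPM at the periphery in the retina (SD, n = 4), with log2 fold changes of 1.93 ± 0.14 there and 0.49 ± 0.075 in the RPE/choroid (SE, adjusted p = 3.98e-07 and 0.000396).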
